A study of Mus musculus with 8 samples.

Results

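The amino acid response genes of the transcription factor ATF4 were followed in whole brains of E15.5 mouse fetuses whose dams had, or had not, been exposed to chronic unpredictable mild stress (CUMS). The 10 genes were chosen by name as known ATF4 targets, by a rule that uses no measured value but with earlier results of these data known, and are *Asns*, *Chac1*, *Trib3*, *Psat1*, *Phgdh*, *Shmt2*, *Mthfd2*, *Slc7a11*, *Slc7a5* and *Slc3a2*. All 10 were found among the 54752 gene rows of the count tables, and 10 of 10 passed the filter on low counts that left 17865 genes for testing. The animals were wild-type C57BL/6 mice (C57BL/6Slac in the study's methods), and the tissue is whole brain by the labels, while the study's library table enters it as half_whole_brain. The control group held 4 brains of fetuses from an undisturbed dam (F36 and F37, both female, and M30 and M31, both male), and the stress group held 4 brains of fetuses from a dam that went through a changing series of mild stressors in pregnancy (F34 and F35, both female, and M28 and M29, both male). The study's library table assigns the 4 brains of each group to 1 litter, so that effects of litter and of stress cannot be told apart. The p-values therefore measure only the spread between littermates. One library was made per brain, and each value is a count of read pairs on the exons of a gene, given here as counts per 1000000 (CPM).

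ATF4 is the main effector of the integrated stress response. Kinases that sense amino acid shortage, misfolded proteins, double-stranded RNA or heme loss phosphorylate the initiation factor eIF2α, which lowers protein synthesis in general but favours translation of the *Atf4* mRNA. The ATF4 protein, paired with C/EBP family partners, binds composite sites known as C/EBP-ATF response elements and raises the transcription of genes for amino acid synthesis, import and tRNA charging, and of later genes linked to cell death. Because ATF4 is controlled largely at translation, its mRNA level need not follow its activity, and its targets serve as the usual transcript readout. In the fetal brain the serine pathway is best known in radial glia, the neural progenitors, and loss of its enzymes impairs brain growth.

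The core of the response element, TGATGNAA, was searched on both strands in the reference promoters of the 10 genes, because these are the letters through which ATF4 targets are recognised. Promoters were taken from RefSeq (build GRCm38.p6) and run from 250 bases before to 50 bases after the start. The table lists 9 of the 10 genes, all except *Slc7a5*. Of these 9, 4 held a core (*Asns*, *Chac1*, *Trib3* and *Slc7a11*), against 3.97% of all 32851 promoters and 4.51% of the 27025 genes listed. The 5 matches are printed as 30 bases read so that the core, in capitals, runs 5′ to 3′ from TGATG.
*Asns*, chr6:7693214-7693243, minus strand: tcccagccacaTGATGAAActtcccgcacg
*Chac1*, chr2:119351038-119351067, minus strand: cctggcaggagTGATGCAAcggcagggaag
*Trib3*, chr2:152344028-152344057, plus strand: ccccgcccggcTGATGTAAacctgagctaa
*Slc7a11*, first match, chr3:50443661-50443690, minus strand: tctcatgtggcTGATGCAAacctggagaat
*Slc7a11*, second match, chr3:50443642-50443671, plus strand: gggctgcatgaTGATGCAAattctccaggt

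The *Asns* core lay 23 to 16 bases before the start, on the strand of the gene. The *Chac1* core lay 193 to 186 bases before the start, on the opposite strand. *Slc7a11* held a pair of cores, 66 to 59 bases before the start on its own strand and 47 to 40 bases before it on the opposite strand, so that the matches face each other. The *Trib3* match lay 14 to 21 bases after the RefSeq start, on the opposite strand, and outside the gene as the count tables bound it. Neither of the listed promoters of *Psat1* held these letters in this window, and neither did those of *Phgdh*, *Shmt2*, *Mthfd2* and *Slc3a2*. The windows of *Psat1*, *Mthfd2* and *Slc3a2* lie inside the genes as counted, so that the outer ends of these genes were not searched. The letters CCAAT, searched in the same way, were found for 5 of the 9 genes (*Chac1*, *Psat1*, *Phgdh*, *Mthfd2* and *Slc7a11*), against 41.1% of all genes listed, and overlapped no core in them. The 250 bases before the start are shown, on the strand of the gene and with each core in capitals, for the 3 genes whose cores lie there.
*Asns*, chr6:7693210-7693459, minus strand: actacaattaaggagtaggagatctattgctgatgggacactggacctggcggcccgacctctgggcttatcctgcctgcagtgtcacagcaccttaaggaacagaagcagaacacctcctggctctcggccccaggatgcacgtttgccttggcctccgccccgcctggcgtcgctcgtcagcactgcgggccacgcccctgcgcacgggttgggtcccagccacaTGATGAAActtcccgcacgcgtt
*Chac1*, chr2:119350992-119351241, plus strand: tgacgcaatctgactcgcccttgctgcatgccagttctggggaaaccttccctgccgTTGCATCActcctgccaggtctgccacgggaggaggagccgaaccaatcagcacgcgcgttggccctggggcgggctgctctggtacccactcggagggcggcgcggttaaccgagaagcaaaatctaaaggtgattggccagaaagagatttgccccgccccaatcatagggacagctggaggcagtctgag
*Slc7a11*, chr3:50443614-50443863, minus strand: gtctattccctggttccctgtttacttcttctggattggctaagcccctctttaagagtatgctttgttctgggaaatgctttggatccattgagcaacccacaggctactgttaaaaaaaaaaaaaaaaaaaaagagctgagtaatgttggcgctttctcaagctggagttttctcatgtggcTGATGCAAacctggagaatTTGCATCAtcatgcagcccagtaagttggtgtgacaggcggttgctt

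The libraries held between 25320109 and 29105710 counts, and the common biological coefficient of variation was 3.14%. The median log2 fold change (stress against control) over all genes tested was 0.0015. Marker counts are read against the 6.49% of all genes tested that were called higher and the 7.27% called lower. Of the radial glia markers 5 of 12 were called higher and none lower, 7 had log2 fold changes above 0 and 5 below 0, and the summed levels overlapped (2315 to 2429 CPM in controls and 2346 to 2501 CPM in stressed brains). Of the neuron markers 5 of 10 were called lower and none higher, with summed levels that overlapped (7968 to 8212 and 7762 to 8125 CPM). Endothelial markers were called lower for 5 of 9 tested, and their summed level did not overlap between the groups (173 to 186 and 155 to 169 CPM). Of the pericyte and meningeal markers 3 of 8 were called higher, all of them collagens (*Col1a1*, *Col1a2* and *Col3a1*). In that list 4 log2 fold changes were above 0 and 4 below 0 (144 to 153 and 148 to 192 CPM). The 3 collagens were highest in stress M28, at 11.7, 21.8 and 21.3 CPM. They stood at 1.34 to 4.27, 7.39 to 10.7 and 6.48 to 10.6 CPM in the other stressed brains. Control F36, at 3.20, 10.2 and 8.63 CPM, lay within the stressed range for each. The pericyte markers *Pdgfrb*, *Rgs5*, *Kcnj8* and *Abcc9* had log2 fold changes of -0.0006, -0.02, -0.01 and -0.0007, none called. Of the choroid plexus markers 3 of 7 were called higher (37.7 to 48.7 and 47.5 to 77.7 CPM), and 2 of the 7 had log2 fold changes below 0. One of those called, *Ttr*, stood at 29.9 CPM in stress F34. It stood at 0.656 to 6.76 CPM in the other stressed brains and at 0.564 to 6.95 CPM in the controls. Of the erythroid markers 2 of 9 were called higher, *Hba-x* and *Hbb-y* (log2 fold changes 1.09 and 0.84), and 1 lower, *Hbb-bs* (-0.14). No microglia marker was called (0 of 8), and of 8 markers of tissues outside the brain 2 had enough counts and neither was called. In whole tissue, fewer cells of a type and less RNA per cell cannot be told apart, and the part of these shifts in the results below was not tested.

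The first comparison asked whether the ATF4 amino acid response differed between stressed and control brains. A single gene rose, *Psat1*, by 13.1%, and none was called lower. The call was made at an adjusted p under 0.05 in edgeR's quasi-likelihood test with sex in the model, adjusted by the Benjamini-Hochberg method over all genes tested. Thus 1 of 10 was called higher, where 6.49% of all genes tested were called higher, and 0 of 10 were called lower, where 7.27% were, so that the share called in either direction (13.8% over all genes) was not above the background. At an unadjusted p under 0.05, 5 of the 10 genes passed, *Psat1*, *Trib3*, *Phgdh*, *Asns* and *Slc7a5*, where 26.9% of all genes tested passed, and DESeq2 called *Psat1* alone. The log2 fold changes were above 0 for 5 genes and below 0 for the other 5, with a median of -0.02. Their median size regardless of sign was 0.09, beside 0.08 over all genes tested. The groups did not overlap for 2 of the 10, *Psat1* and *Trib3*, where 16.4% of all genes tested did not overlap. Summed over the 10 genes, the level was 502 to 505 CPM in the controls and 514 to 526 CPM in the stressed brains, a sum to which *Psat1*, with the highest CPM, contributed most.

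**Figure D1:**
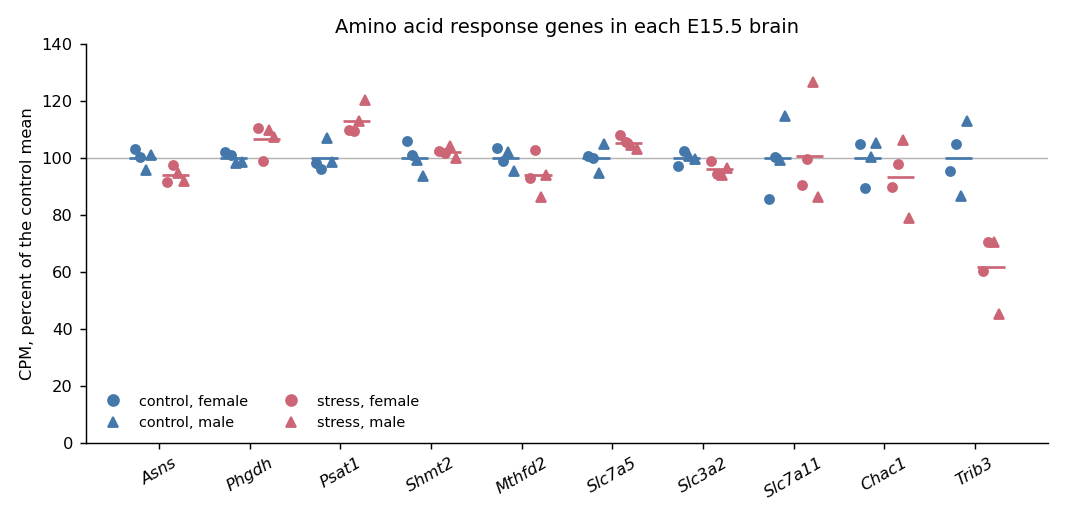
CPM of the 10 amino acid response genes in each brain, as a percent of the control mean of the gene, with controls in blue, stressed brains in red, females as circles, males as triangles and the group mean as a line (n = 4 per group). Only *Psat1* (stressed brains higher) and *Trib3* (stressed brains lower) have groups that do not overlap.

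*Phgdh* and *Psat1* encode the first and second enzymes of serine synthesis from the glycolytic intermediate 3-phosphoglycerate. *Psat1* (ENSMUSG00000024640.9, chr19:15904678-15947337 in mm10, minus strand) stood at 118, 115, 128 and 118 CPM in control F36, F37, M30 and M31, and at 132, 131, 136 and 144 CPM in stress F34, F35, M28 and M29. The highest control, M30, was below the lowest stressed brain. The mean was 120.0 ± 5.81 CPM in controls and 136 ± 6.07 CPM in stressed brains (SD, n = 4 each), a log2 fold change of 0.18 (SE 0.03, 95% interval 0.11 to 0.24, edgeR adjusted p = 0.000327). It was called in each of 15 alternative analyses, with log2 fold changes from 0.15 to 0.20. *Phgdh* (ENSMUSG00000053398.11, chr3:98313170-98339990, minus strand) stood at 72.7, 72.1, 70.1 and 70.1 CPM in the controls and at 78.7, 70.6, 78.3 and 76.5 CPM in the stressed brains. Stress F35 lay within the control range, and the other 3 stressed brains lay above it. The log2 fold change of *Phgdh* was 0.09 (SE 0.04, 95% interval 0.02 to 0.17, edgeR adjusted p = 0.0779), and without stress F35 it was 0.13 (adjusted p = 0.00767). *Psph*, the third and last enzyme of the pathway and no member of the list of 10, had a log2 fold change of 0.09 (SE 0.07, adjusted p = 0.438). Of the radial glia markers 5 of 12 were called higher in the same brains, and their part in the *Psat1* difference was not tested.

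*Shmt2* and *Mthfd2* act in mitochondria, where *Shmt2* splits serine into glycine and a one-carbon unit and *Mthfd2* oxidises that unit on its way to formate. *Shmt2* (ENSMUSG00000025403.5, chr10:127517123-127522444, minus strand) stood at 49.9, 47.6, 46.9 and 44.1 CPM in the controls and at 48.3, 47.9, 49.2 and 47.2 CPM in the stressed brains, which all lay inside the control range. Its log2 fold change was 0.03 (SE 0.04, 95% interval -0.05 to 0.11, adjusted p = 0.666), and 1.03% of its exon bases are shared with another gene. *Mthfd2* (ENSMUSG00000005667.8, chr6:83305691-83325908, minus strand) stood at 24.9, 23.7, 24.5 and 22.9 CPM in the controls and at 22.3, 24.7, 20.7 and 22.6 CPM in the stressed brains. Stressed female F35 was within the control range and the other 3 stressed brains were below it, with a log2 fold change of -0.09 (SE 0.05, 95% interval -0.19 to 0.01, adjusted p = 0.268). For neither mitochondrial enzyme was a difference detected.

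*Asns* encodes asparagine synthetase, which makes asparagine from aspartate and glutamine and is the textbook gene of the amino acid response. *Asns* (ENSMUSG00000029752.12, chr6:7675169-7693254, minus strand) stood at 48.1, 46.8, 44.7 and 47.1 CPM in the controls and at 42.8, 45.5, 44.3 and 42.9 CPM in the stressed brains. Stress F35 alone overlapped the controls, since it lay above control M30. The log2 fold change was -0.09 (SE 0.04, 95% interval -0.17 to -0.01), and it was not called (adjusted p = 0.124).

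*Slc7a5* and *Slc7a11* encode light chains of exchangers at the cell surface, and *Slc3a2* encodes the heavy chain (4F2hc) with which both pair. *Slc7a5* (LAT1), which imports leucine and other large neutral amino acids, is also known as a transporter of the brain endothelium. *Slc7a5* (ENSMUSG00000040010.10, chr8:121881150-121907694, minus strand) stood at 98.0, 97.3, 92.2 and 102 CPM in the controls and at 105, 103, 102 and 101 CPM in the stressed brains. Control M31 reached into the stressed range, and the other 3 controls lay below it. The log2 fold change of *Slc7a5* was 0.07 (SE 0.03, 95% interval 0.01 to 0.14, adjusted p = 0.135), and without control M31 it was 0.11 (adjusted p = 0.0248). Of the endothelial markers 5 of 9 were called lower in the same stressed brains, and their part was not tested.

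*Slc3a2* (ENSMUSG00000010095.13, chr19:8706882-8723369, minus strand) stood at 85.5, 90.0, 88.7 and 87.6 CPM in the controls and at 87.1, 83.0, 82.8 and 84.8 CPM in the stressed brains. Control F36 and stress F34 overlapped, and the log2 fold change was -0.06 (SE 0.03, 95% interval -0.12 to 0.00, adjusted p = 0.226). *Slc7a11* (xCT), which exchanges glutamate for cystine and so feeds glutathione synthesis, is a low gene here (ENSMUSG00000027737.10, chr3:49892526-50443614, minus strand). *Slc7a11* stood at 3.93, 4.62, 4.57 and 5.27 CPM in the controls and at 4.16, 4.58, 5.82 and 3.97 CPM in the stressed brains, so that the groups overlapped throughout. With 515 counts over the 4 controls and 513 over the 4 stressed brains, the log2 fold change was 0.01 (SE 0.11, 95% interval -0.22 to 0.24, adjusted p = 0.973). None of the 3 chains was called, and as a fold the 95% interval ran from 1.01 to 1.10 for *Slc7a5*, from 0.918 to 1.003 for *Slc3a2* and from 0.856 to 1.18 for *Slc7a11*.

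*Chac1* and *Trib3* are late effectors of the stress response. *Chac1* encodes an enzyme that degrades glutathione, and *Trib3* a pseudokinase that binds AKT and restrains ATF4 in a feedback loop. *Chac1* (ENSMUSG00000027313.3, chr2:119351229-119354381, plus strand) stood at 3.68, 3.14, 3.52 and 3.69 CPM in the controls and at 3.15, 3.44, 3.73 and 2.76 CPM in the stressed brains. The highest of the 8 values was stress M28 and the lowest stress M29, with a log2 fold change of -0.10 (SE 0.12, 95% interval -0.35 to 0.14, adjusted p = 0.642).

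*Trib3* (ENSMUSG00000032715.9, chr2:152337422-152344032, minus strand) was the member with the largest fitted change and the fewest counts. *Trib3* stood at 0.801, 0.881, 0.726 and 0.949 CPM in the controls and at 0.507, 0.593, 0.593 and 0.380 CPM in the stressed brains. These values rest on 22, 25, 20 and 27 counts and on 14, 15, 17 and 11 counts. Every stressed brain lay below every control, with a log2 fold change of -0.70 (SE 0.24, 95% interval -1.20 to -0.20), but the gene missed the call (unadjusted p = 0.00801 and adjusted p = 0.0553 by edgeR; exact permutation test of the CPM values, two-sided, p = 0.0286, the smallest that 4 against 4 allows). Over the 15 alternative analyses its adjusted p ran from 0.052 to 0.234, so that it passed in none of them. The interval runs from a fall to 0.436 of the control level to a fall to 0.871 of it.

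The levels of the 10 genes were compared per length of exon, as CPM per 1000 exon bases (RPKM), over all 8 brains. *Psat1* (mean 30.1 RPKM) and *Phgdh* (29.6 RPKM) led the order and could not be ranked, since *Psat1* was above *Phgdh* in 4 of the 8 brains. *Slc7a5* (27.0 RPKM) and *Slc3a2* (24.4 RPKM) came next, with *Slc7a5* above its heavy chain in 7 of 8 brains. *Asns* (16.6 RPKM) and *Shmt2* (15.3 RPKM) formed a middle pair whose ranges met, although *Asns* was above *Shmt2* in each brain. *Mthfd2* (6.68 RPKM) and *Chac1* (2.07 RPKM) each stood apart from their neighbours in the order. *Slc7a11* (0.332 RPKM) and *Trib3* (0.319 RPKM) closed it and could not be ranked, with *Slc7a11* above *Trib3* in 4 of the 8 brains. The late stress effectors and the cystine exchanger thus stood below the synthesis, one-carbon and LAT1 genes in each brain. *Psph*, the last step of serine synthesis, was lower than the steps before it, at 2.94 RPKM in controls and 3.12 RPKM in stressed brains.

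**Figure D2:**
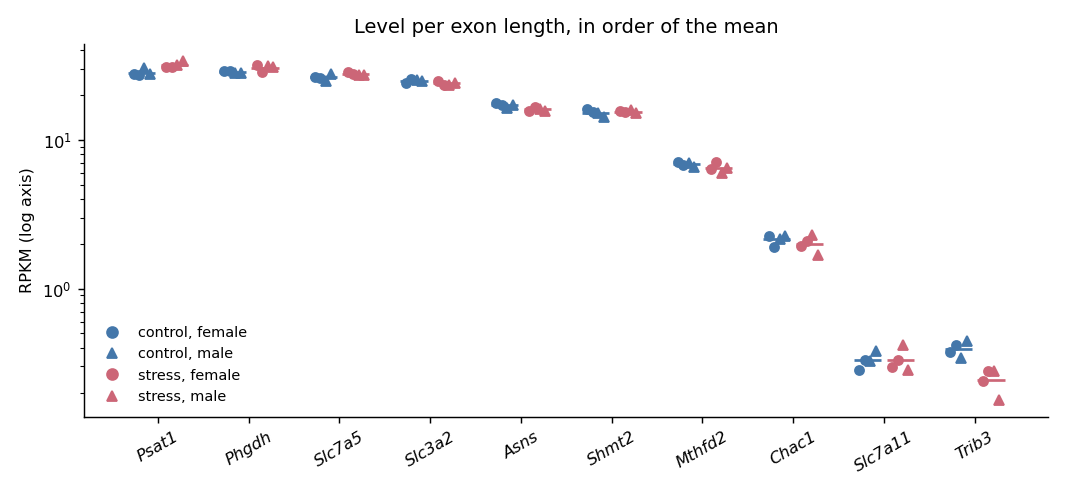
Level per exon length (RPKM, log axis) of the 10 genes in each brain, in order of the mean, with controls in blue, stressed brains in red, females as circles, males as triangles and group means as lines. The order runs from *Psat1* at a mean of 30.1 RPKM to *Trib3* at 0.319 RPKM, and *Psat1* and *Phgdh* overlap.

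The second comparison asked whether the sexes differed, with 2 females and 2 males in each group and 1 estimate of the spread for all 8 brains. In females *Psat1* was the 1 gene of 10 called (3.92% of all genes tested were called), with a log2 fold change of 0.17 (SE 0.04, edgeR adjusted p = 0.0258). In males *Psat1* was again the 1 gene of 10 called (6.80% of all genes), with a log2 fold change of 0.18 (SE 0.04, edgeR adjusted p = 0.0115). The difference between these effects, male minus female, was 0.01 (SE 0.06, 95% interval -0.12 to 0.14). Each call within a sex rests on 2 brains against 2, and omission of a brain of that sex leaves 1 in a group. In females the *Psat1* call was lost in DESeq2 (adjusted p = 0.0551) and when any of the 4 female brains was left out. In males it was lost when control M31 or stress M29 was left out. Over all genes, calls in females were also fewer in DESeq2 (117 higher and 175 lower) than in edgeR (297 and 403). *Trib3* had log2 fold changes of -0.61 (SE 0.35) in females and -0.78 (SE 0.35) in males, neither called. *Phgdh* had 0.05 (SE 0.05) in females and 0.14 (SE 0.05, edgeR adjusted p = 0.0753) in males. *Shmt2* had -0.02 (SE 0.05) in females and 0.08 (SE 0.05) in males.

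No interaction of sex and stress was called among the 10 genes (0.00560% of all genes tested were called), in edgeR or in DESeq2, and none had an unadjusted edgeR p under 0.05. No gene of the 10 was called between males and females either (0.0896% of all genes), in edgeR or in DESeq2. At an unadjusted p under 0.05 only *Psat1* passed that comparison, with males above females by 0.09 on the log2 scale (SE 0.03, edgeR adjusted p = 0.749).

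**Figure D3:**
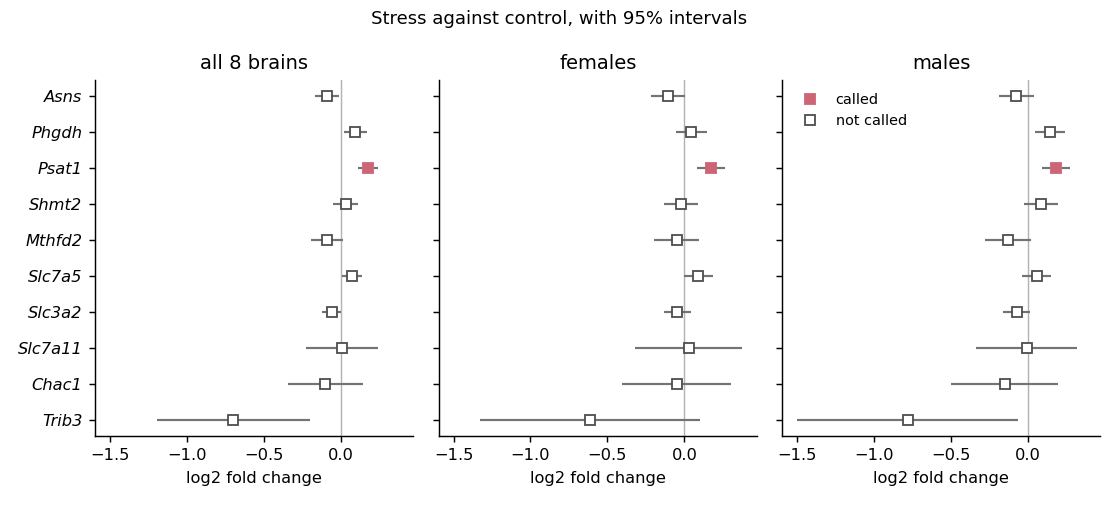
Log2 fold changes (stress against control) of the 10 genes with 95% intervals over all 8 brains, within females and within males, with filled squares for genes called by edgeR at an adjusted p under 0.05. *Psat1* is the 1 gene called in each of the 3 panels, and *Trib3* has the widest intervals.

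The rest of the pathway was followed by gene lists, whose counts are read against the 6.49% of all genes called higher and the 7.27% called lower. Upstream, among 19 eIF2α kinases and their regulators 4 were called higher and 1 lower (median log2 fold change 0.01). Of the 4 kinases, *Eif2ak2* (PKR), which senses double-stranded RNA, rose. *Eif2ak2* stood at 3.17, 3.21, 4.03 and 3.69 CPM in the controls and at 4.92, 4.07, 5.44 and 4.49 CPM in the stressed brains, with a log2 fold change of 0.43 (SE 0.11, edgeR adjusted p = 0.00844). Its groups stood apart, though stress F35 exceeded control M30 by little. The other kinases had log2 fold changes of 0.03 for *Eif2ak1* (the heme sensor HRI, adjusted p = 0.6), -0.06 for *Eif2ak3* (the endoplasmic reticulum sensor PERK, 0.449) and 0.09 for *Eif2ak4* (the amino acid sensor GCN2, 0.224). *Impact*, an inhibitor of GCN2 activation that is abundant in neurons, fell from 57.3 to 57.9 CPM in the controls to 51.0 to 55.8 CPM in the stressed brains (log2 fold change -0.13, SE 0.04, adjusted p = 0.0122). Of the neuron markers 5 of 10 were called lower in the same brains, and their part was not tested.

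*Eif2b5* and *Eif2b3*, subunits of the exchange factor eIF2B that phosphorylated eIF2 blocks, rose by 0.12 (SE 0.03, edgeR adjusted p = 0.0132) and 0.17 (SE 0.05, adjusted p = 0.0321) on the log2 scale. The other eIF2B subunits, *Eif2b1*, *Eif2b2* and *Eif2b4*, had log2 fold changes of -0.04 (edgeR adjusted p = 0.574), 0.01 (0.918) and 0.004 (0.969). The *Eif2b5* call was lost without control F37 (adjusted p = 0.0703) or stress M29 (0.0554). The *Eif2b3* call was lost without control F37, control M30, stress F34, stress M28 or stress M29 (adjusted p from 0.057 to 0.18), in DESeq2 (0.0963) and without the sex term (0.0575). The remaining call, *Eif2s3x* (X-linked eIF2γ subunit, log2 fold change 0.08, adjusted p = 0.047), is named only because the count is small, a choice made with its values known. The *Eif2s3x* call was lost in 11 alternatives, among them the omission of each of control F36, F37 and M30 and of each of the 4 stressed brains (adjusted p from 0.0533 to 0.178). The alternative without X, Y and mitochondrial genes holds no value for this X-linked gene.

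*Atf4* itself stood at 118, 120, 118 and 107 CPM in the controls and at 110, 111, 117 and 120 CPM in the stressed brains, with a log2 fold change of -0.02 (SE 0.04, 95% interval -0.09 to 0.06, adjusted p = 0.808). *Ddit3*, which encodes the proapoptotic partner CHOP, stood at 12.5, 11.7, 11.7 and 11.1 CPM in the controls and at 11.4, 11.02, 11.4 and 12.5 CPM in the stressed brains (log2 fold change -0.02, SE 0.07, adjusted p = 0.895). The groups overlapped for both. Of ATF4 and its partner transcription factors, 0 of 10 tested were called in either direction (median -0.03), and *Nupr1* did not pass the filter. Among the 10, *Atf3*, *Cebpb* and *Batf3* held only 6 to 22 counts per brain (SE 0.30, 0.34 and 0.33). The 95% interval of *Cebpb* ran from -0.73 to 0.65, so that sizeable changes in these genes could be missed.

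Among 29 other known targets of ATF4 none was called higher and 4 were called lower (median -0.03). The largest change was in *Slc7a3* (CAT3), a carrier of arginine and lysine. *Slc7a3* stood at 5.39, 4.69, 5.15 and 4.50 CPM in the controls and at 3.15, 3.24, 2.72 and 2.52 CPM in the stressed brains, with a log2 fold change of -0.76 (SE 0.11, edgeR adjusted p = 3.98e-05). The lowest control was well above the highest stressed brain. *Bbc3*, which encodes the proapoptotic protein PUMA, fell from 17.6 ± 0.45 to 14.7 ± 1.0 CPM (SD, n = 4 each; log2 fold change -0.26, edgeR adjusted p = 0.00332). *Slc6a9*, the glycine transporter GlyT1, fell by 0.20 on the log2 scale (SE 0.05, adjusted p = 0.0129), and without stress M29 it was no longer called (adjusted p = 0.0859). Of its exon bases 30.2% are shared with other genes. The fourth, *Slc1a4* (ASCT1), a serine and alanine exchanger, had a log2 fold change of -0.10 (adjusted p = 0.0311) and is named after its values were seen because the count is small. It was not called without control F36, M30 or M31 or without stress F35, M28 or M29 (adjusted p from 0.0501 to 0.128), nor by DESeq2 (0.0525). *Sesn2*, *Ddit4*, *Ppp1r15a*, *Atf3* and *Atf5*, further genes commonly read as ATF4 targets, were not called (edgeR adjusted p from 0.268 to 0.901).

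**Figure D4:**
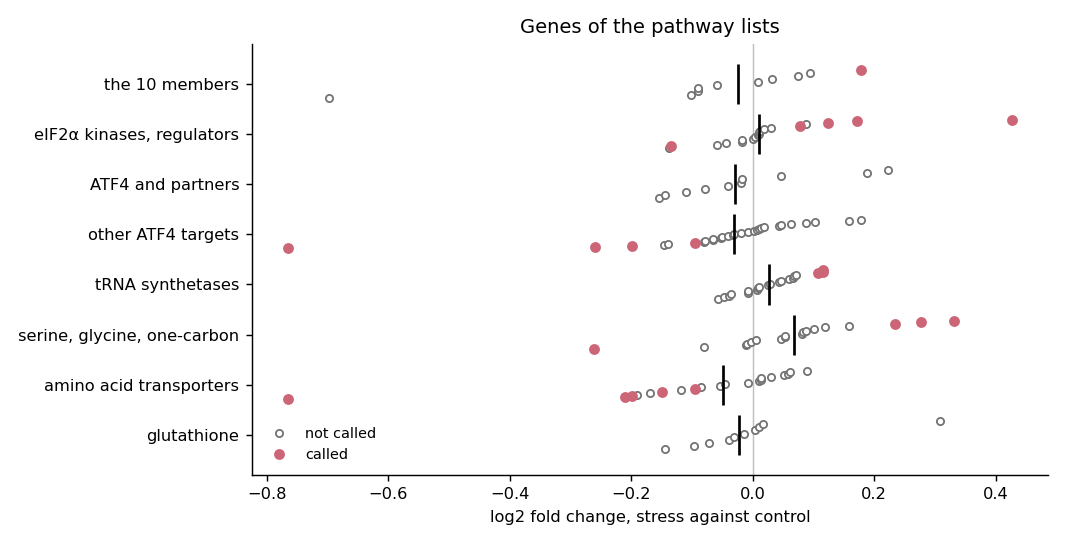
Log2 fold change (stress against control) of each tested gene of the 8 pathway lists, filled where edgeR called it at an adjusted p under 0.05, with the median of each list as a black bar. The medians of all 8 lists lie between -0.05 and 0.07.

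Cytosolic aminoacyl-tRNA synthetases load amino acids onto tRNAs, and several of them are known ATF4 targets. Of 20 such genes 3 were called higher and 0 lower (median 0.03), with 14 log2 fold changes above 0 and 6 below 0. *Lars* (leucine), *Rars* (arginine) and *Dars* (aspartate) had log2 fold changes of 0.12 (edgeR adjusted p = 0.0152), 0.12 (0.0297) and 0.11 (0.0339). These calls were near the threshold. *Lars* was not called without control F36 or M30 (adjusted p = 0.067 and 0.0585). *Rars* was not called by DESeq2 (0.0684) or without any 1 of control F37, M30 and M31 and stress F34, M28 and M29 (adjusted p from 0.0504 to 0.133). *Dars* was not called by DESeq2 (0.0716) or without any 1 of control F36, F37 and M30 and stress F35 and M29 (adjusted p from 0.0877 to 0.156).

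Of 18 serine, glycine and one-carbon enzymes outside the 10 genes, 3 were called higher and 1 lower (median 0.07). *Shmt1*, the cytosolic counterpart of *Shmt2*, rose from 10.2 ± 0.58 to 12.3 ± 0.25 CPM (log2 fold change 0.28, SE 0.07, edgeR adjusted p = 0.00506). Cytosolic *Shmt1* was thus called while mitochondrial *Shmt2* was not, and the difference between these effects was not tested. *Gldc* and *Amt* encode partner proteins of the mitochondrial glycine cleavage system, and they moved in opposite directions. *Gldc*, known from radial glia, rose by 0.23 on the log2 scale (SE 0.05, edgeR adjusted p = 0.00353). *Amt* stood at 43.4, 42.4, 42.0 and 38.9 CPM in the controls and at 35.96, 36.2, 33.4 and 33.6 CPM in the stressed brains (log2 fold change -0.26, SE 0.04, edgeR adjusted p = 8.02e-05). The proliferation marker *Mki67* had the highest log2 fold change of the 12 radial glia markers (0.21, edgeR adjusted p = 3.25e-05). Of the 12, 5 were called higher and 5 had log2 fold changes below 0. The part of these markers in the differences above was not tested.

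Of 20 amino acid transporters outside the 10 genes none was called higher and 5 were called lower (median -0.05). Of these, *Slc7a3*, *Slc6a9* and *Slc1a4* were described above. *Slc38a3* (SNAT3), a glutamine carrier, stood at 32.5, 33.2, 32.4 and 33.6 CPM in the controls and at 27.2, 28.2, 30.2 and 28.2 CPM in the stressed brains (log2 fold change -0.21, SE 0.04, edgeR adjusted p = 0.00147). *Slc36a1* (PAT1), a carrier of the lysosome, had a log2 fold change of -0.15 (adjusted p = 0.0174), is named after its values were seen because the count is small, and was not called without control M31 (0.075) or stress M29 (0.121). Among the other light chains that pair with *Slc3a2*, *Slc7a6* (y+LAT2) had a log2 fold change of 0.09 (adjusted p = 0.0593), *Slc7a8* (LAT2) -0.05 (0.526), *Slc7a7* (y+LAT1) -0.08 (0.631) and *Slc7a10* (Asc-1) -0.12 (0.46). Per length, *Slc7a5* was the most abundant of these partners in controls, at 26.3 RPKM beside 15.0 RPKM for *Slc7a6* and 4.36 RPKM for *Slc7a8*. Of 10 genes of glutathione synthesis and turnover, into which *Slc7a11* and *Chac1* feed, none was called in either direction (median -0.02).

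**Figure D5:**
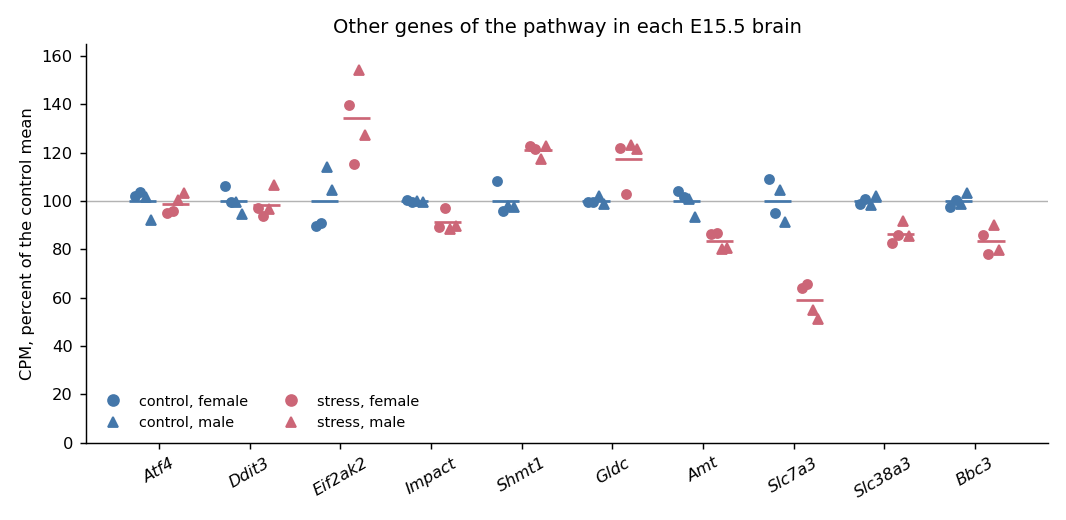
CPM of 10 named genes of the pathway lists in each brain, as a percent of the control mean of the gene, with controls in blue, stressed brains in red, females as circles, males as triangles and group means as lines. *Atf4* and *Ddit3* overlap between the groups. The other 8 genes were chosen among those called, and their groups do not overlap, where 16.4% of all genes tested do not.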

How the data were processed

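RNA of 8 E15.5 fetal brains was sequenced, 1 library per brain, and grouped by the sample labels. The authors trimmed the paired reads, used TopHat2 2.1.1 for alignment to mm10, and obtained exon counts per GENCODE gene from featureCounts 1.6.3. The deposited values are these raw counts, without normalization or filter. The counting command sets nothing for strand, multiple hits or overlapping genes, so that genes with shared exon bases are uncertain. Of 54752 gene rows, 54723 were matched to a symbol by gene identifier.

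Genes were kept by filterByExpr (minimum count 10, by group), scaled by TMM and fitted by quasi-likelihood (edgeR 4.0.16, limma 3.58.1, R 4.3.3). The model held sex and condition, and values within a sex came from a model of 4 groups. Standard errors and 95% intervals were derived from the fitted values. The study's model also held batch, which its library table does not name for these brains. Genes were called at a Benjamini-Hochberg adjusted p under 0.05. CPM used TMM-scaled library sizes, and RPKM divided CPM by union exon length. The tests were tested on simulated data first.

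The 10 genes and all lists were chosen with earlier results of these data known. Named genes are all 10, the called genes of each other list by smallest p (at most 3 in each direction), *Atf4*, *Ddit3* and the eIF2α kinases. Further genes (*Psph*, *Sesn2*, *Ddit4*, *Ppp1r15a*, *Atf3*, *Atf5*, *Eif2s3x*, *Slc1a4*, *Slc36a1* and the partners of *Slc3a2*) were named with their values known. So were *Cebpb*, *Batf3*, the pericyte markers and the eIF2B subunits that were not called. One result under the naming rule is not reported here. Alternatives were DESeq2 1.42.0, 3 other scalings, no filter, no sex term, no X, Y and mitochondrial genes, and omission of each brain. Library totals of 25320109 to 29105710 counts leave *Trib3*, *Chac1* and *Slc7a11* the least precise.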

Additional observations from a re-analysis of the deposited data

Results flagged for a closer look

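Among 66 groups of 4 brains, 5 held a brain set apart from the other 3 by a wide gap (Dixon's test), and chance gives about 1 in 20. None of them concerned the 10 amino acid response genes. *Gldc* in stress F35 stood at 21.5 CPM, beside 25.4 to 25.8 CPM in the other stressed brains. *Impact* in stress F35 stood at 55.8 CPM, beside 51.0 to 51.5 CPM. Both lay nearer to the controls in that brain, whose library had the lowest total, and *Phgdh* was also nearest to the controls there. *Eif2b5* in stress M28 stood at 74.5 CPM, beside 79.0 to 79.6 CPM. *Eif2b3* in stress M29 stood at 23.3 CPM, beside 22.9 to 23.0 CPM. *Shmt1* in control F36 stood at 11.03 CPM, beside 9.77 to 9.98 CPM in the other controls.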

How the results depend on the processing

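Over 15 alternatives, 144 of 150 values of the 10 genes kept their direction and their side of the threshold. *Psat1* kept its call in all 15. *Slc7a11* changed sign without control F36, control M30, stress F35 or stress M28 (-0.11 to 0.12 over the 8 omissions). *Phgdh* passed without stress F35 and *Slc7a5* without control M31, so that 1 to 2 of the 10 genes were called as brains were left out. Within females 0 to 1 were called and within males 0 to 2, and DESeq2 called 0 in females. *Phgdh* passed in males when a stressed female was left out (log2 fold change 0.14 for each), and in females it ran from -0.037 to 0.12 over the omissions, below 0 without stress F34. The sex by stress difference ran from -0.049 to 0.069 for *Psat1* (below 0 without control F36, control M31 or stress M29) and from -0.52 to 0.12 for *Trib3* (above 0 without control M31 or stress M29). *Atf4* ran from -0.063 to 0.0047 (above 0 without control F37 or stress F34), and *Ddit3* from -0.066 to 0.014 (above 0 without control F36 or stress F35). Calls in the pathway lists numbered 18 (13.8% of all genes tested were called), and 10 to 16 as brains were left out, with the lowest count without stress M29. Calls over all genes were also fewest without that brain. They numbered 736 higher and 854 lower there, beside 1160 and 1298 with all brains. Without a sex term the eIF2α list had 2 genes called higher and the transporters 1, and DESeq2 called 1 synthetase. Scaling moved the median of all genes by less than 0.1 (log2). No paired analysis was possible because replicate numbers are only an order of accession. With 1 litter per group the difference between litters was not measured, and the low counts of *Trib3* limit what these libraries can show of it.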
